A study of Homo sapiens with 10 samples.

Results

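The genes for 10 ligands and receptors of the transforming growth factor beta (TGF-beta) superfamily were followed in A253 cells with a deletion in DUSP1. They were taken by gene name from the table of gene counts, as 10 of its 58735 genes, and comprise the TGF-beta ligands TGFB1, TGFB2 and TGFB3, the activin subunit INHBA, the bone morphogenetic proteins BMP2, BMP4 and BMP7, and the receptors TGFBR1, TGFBR2 and TGFBR3. A253 is an established human line of salivary gland squamous carcinoma, and DUSP1 is a phosphatase that switches off MAP kinases. The control cells (2 libraries) received a guide RNA against dTomato, a fluorescent protein gene that these cells lack. The other cells received guides that flank exon 2 of DUSP1, and from them the clones Cl1 and Cl10 (2 libraries each) were grown, which the sample labels call DUSP1 KO and which the paper describes as heterozygous for the deletion. The paper also reports that DUSP1 protein was absent from both clones, and it proposes indels in the undeleted alleles as a possible reason. All 3 groups carry a puromycin-selected guide vector and a blasticidin-selected Cas9 vector. Each clone descends from 1 cell, so that traits of that founder cell and effects of the deletion cannot be told apart. Nothing in the labels says that the libraries of a group came from separate cultures, and the p-values therefore measure the spread between these libraries, which may be technical.

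Counts per library summed to between 47016495 and 70986593. Values are given as normalized counts, which are scaled with TMM factors to the mean library total. DUSP1 had 744.4 and 635.4 normalized counts in the control libraries, 304.0 and 353.7 in Cl1 and 495.2 and 415.2 in Cl10, so that every clone library was below both controls. These counts cover the whole gene and not the deleted exon alone. Markers of squamous and basal epithelium summed to between 13720 and 14420 CPM (counts scaled to the same total in every library) in the control. They summed to between 15590 and 16230 CPM in Cl1 and between 15620 and 15890 CPM in Cl10, so that every clone library was above both controls. Markers of epithelium (CDH1, EPCAM, KRT8, KRT18 and KRT19) summed to between 2866 and 2906 CPM in Cl10. This was below the control (4179 to 4572 CPM) and Cl1 (4719 to 4998 CPM). Against the control, KRT8, KRT18 and KRT19 were lower in Cl10 (log2 fold changes -1.33, -0.85 and -0.36). CDH1 was higher (0.35), and the value of EPCAM was -0.10. The part of these shifts in the results below was not tested. Of the 7 fibroblast markers, 2 had at most 3 counts in every library. The 7 summed to 45.06 to 51.75 CPM in the control, 43.78 to 48.45 CPM in Cl1 and 30.9 to 32.82 CPM in Cl10. Leukocyte markers summed to at most 0.6073 CPM, endothelial markers to at most 7.644 CPM and myoepithelial markers to at most 5.226 CPM. Markers of the salivary acinus summed to at most 0.1702 CPM, 3 of the 4 having at most 3 counts in every library. Since RNA was taken from whole cultures, fewer cells of a type and less RNA per cell cannot be told apart.

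Ligands of this superfamily are secreted dimers that bring together type I and type II receptor kinases on the target cell, and the activated type I receptor phosphorylates SMAD proteins that enter the nucleus and regulate genes. TGF-beta and activin act mainly through SMAD2 and SMAD3, and BMPs mainly through SMAD1, SMAD5 and SMAD9, while SMAD6 and SMAD7 are inhibitors that feed back on the receptors. In normal squamous epithelium TGF-beta restrains growth, and carcinoma cells often escape this restraint while keeping other responses such as invasion.

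Of the 10 genes, BMP2 stood out in both clones, with the highest log2 fold changes of the set against the control. TGFB2 and TGFBR2 also passed as higher, and INHBA as lower, in each clone against the control. The calls on TGFB2 and TGFBR2 in Cl1 and on INHBA in Cl10 did not hold in every alternative setting, as given below. TGFB1 passed as lower in Cl10 and not in Cl1, and it also differed between the clones in their direct comparison. TGFBR1 and TGFBR3 passed as higher in Cl10, BMP7 passed as higher in Cl1, and TGFB3 and BMP4 passed in neither comparison with the control. Both clones were compared with the same 2 control libraries, so that a deviation of a control library enters both comparisons.

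**Figure D1:**
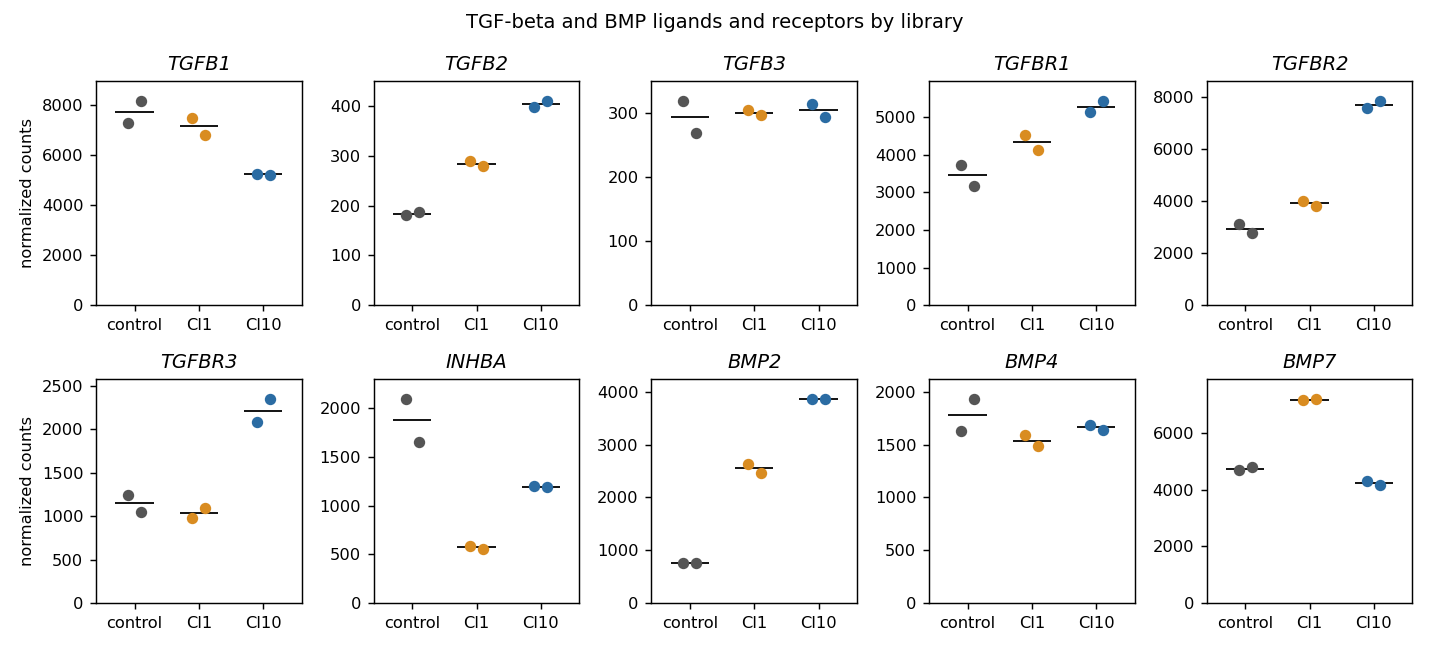
Normalized counts (vertical axes, starting at 0) of the 10 genes in each library of the control, Cl1 and Cl10, with a horizontal line at the mean of each group of 2. BMP2 lies near 756 in the controls, 2471 and 2631 in Cl1 and 3860 and 3863 in Cl10, whereas the 6 libraries of TGFB3 lie between 268.8 and 318.1.

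By the threshold used throughout, an adjusted p under 0.05 in edgeR's quasi-likelihood test with Benjamini-Hochberg adjustment over all genes tested, 4 of the 10 genes were higher and 1 was lower in Cl1 than in the control. All 10 genes were expressed highly enough to be tested in each comparison. Among all 20153 genes tested in Cl1, 25.1% passed, 12.4% as higher and 12.8% as lower. In Cl10, 5 of the 10 genes were higher and 2 were lower, where 42.5% of all 19875 tested genes passed, 20.6% as higher and 21.8% as lower. The median log2 fold change of the 10 genes was 0.18 in Cl1 and 0.34 in Cl10, against -0.01 over all genes tested in each comparison. Without Cl1 replicate 1, TGFB2 and TGFBR2 no longer passed in Cl1. The share of all genes that passed is not given for that fit. With an absolute log2 fold change above 1 asked in addition, BMP2 (higher) and INHBA (lower) passed in Cl1, where 7.54% of all genes passed, 4.27% as higher and 3.27% as lower. BMP2, TGFBR2 and TGFB2 passed in Cl10, all higher, where 13.4% of all genes passed, 5.98% as higher and 7.44% as lower. The 2 libraries of each group did not overlap for 7 of the 10 genes in Cl1 and 8 in Cl10 against the control, which was so for 63.6% and 73.8% of all tested genes. Of the genes tested in both comparisons, which share their controls, 7.14% passed as higher in each, as did TGFB2, TGFBR2 and BMP2, and 7.90% as lower in each, as did INHBA.

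TGFB1 (ENSG00000105329; chromosome 19, 41301587 to 41353922, minus strand of hg38) encodes TGF-beta 1, the most widely expressed isoform. It had 7280 and 8128 normalized counts in the control, 7482 and 6808 in Cl1, and 5242 and 5190 in Cl10. The Cl10 libraries were below all other libraries, while those of Cl1 and the control overlapped. In Cl10 TGFB1 fell by 0.56 on the log2 scale (standard error 0.0873, adjusted p = 0.00261 by edgeR's quasi-likelihood test). For Cl1 the log2 fold change was -0.11 (standard error 0.118, adjusted p = 0.556 by the same test). Of its merged exons, 6.59% are shared with HNRNPUL1 on the opposite strand, and the strand setting of the authors' counting is not given in the sources used here.

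TGFB2 (ENSG00000092969; chromosome 1, 218345336 to 218444619, plus strand) encodes TGF-beta 2, which needs the co-receptor betaglycan for tight binding to its type II receptor. It had 180.2 and 187.1 normalized counts in the control, 289.4 and 278.8 in Cl1, and 398.9 and 409.2 in Cl10. The groups did not overlap, with the control lowest and Cl10 highest. TGFB2 was higher in Cl1 by 0.63 on the log2 scale (standard error 0.163, adjusted p = 0.0135 by edgeR's quasi-likelihood test), and by the same test it was higher in Cl10 by 1.14 (standard error 0.126, adjusted p = 0.000617). In Cl1 the median log2 fold change of the 50 tested genes nearest to it on the chromosome was 0.32, and after subtraction of that median the value of TGFB2 was 0.32 and did not pass (adjusted p = 0.181 by edgeR). Without Cl1 replicate 1 the value was 0.61 and did not pass either (adjusted p = 0.0787). Of its exons, 11.6% are shared with the antisense RNA TGFB2-AS1, which had at most 44 raw counts in any library, against up to 406 for TGFB2. On the same strand, 22.7% are shared with the noncoding RNA TGFB2-OT1, which had no counts in any library. How reads in these shared bases were counted is not known.

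TGFB3 (ENSG00000119699; chromosome 14, 75958097 to 75983011, minus strand) encodes TGF-beta 3. It had 318.1 and 268.8 normalized counts in the control, 304.0 and 296.3 in Cl1, and 314.4 and 294.3 in Cl10. The 3 groups overlapped. The log2 fold change in Cl1 was 0.03 (standard error 0.159, adjusted p = 0.904 by edgeR's quasi-likelihood test), and that in Cl10 was 0.06 (standard error 0.139, adjusted p = 0.774 by the same test). The sign of its value changed with the scaling in Cl1 and with the library left out in both clones.

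INHBA (ENSG00000122641; chromosome 7, 41667168 to 41705834, minus strand) encodes the beta A chain, whose homodimer is activin A. It had 2094 and 1655 normalized counts in the control, 588.3 and 550.5 in Cl1, and 1200 and 1192 in Cl10. The groups did not overlap, with Cl1 lowest and Cl10 between Cl1 and the control. INHBA fell by 1.72 on the log2 scale in Cl1 (standard error 0.136, adjusted p = 3.52e-06 by edgeR's quasi-likelihood test) and fell by 0.65 in Cl10 (standard error 0.121, adjusted p = 0.00545 by the same test). In Cl10 the median log2 fold change of its 50 nearest tested genes was -0.49, and after its subtraction INHBA had a value of -0.15 and did not pass (adjusted p = 0.345 by edgeR).

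BMP2 (ENSG00000125845; chromosome 20, 6767686 to 6780246, plus strand) encodes a ligand best known for inducing bone and cartilage. It had 756.2 and 756.9 normalized counts in the control, 2631 and 2471 in Cl1, and 3860 and 3863 in Cl10. The groups were far apart, with the lowest clone library at 2471 and the highest control at 756.9. BMP2 was higher in Cl1 by 1.76 on the log2 scale (standard error 0.112, adjusted p = 5.43e-07 by edgeR's quasi-likelihood test), and by the same test it was higher in Cl10 by 2.36 (standard error 0.0795, adjusted p = 1.45e-05). Over 12 alternative settings the value in Cl1 was between 1.69 and 1.81, and each setting passed.

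BMP4 (ENSG00000125378; chromosome 14, 53949736 to 53958761, minus strand) encodes the closest relative of BMP2 among these ligands. It had 1629 and 1932 normalized counts in the control, 1588 and 1484 in Cl1, and 1691 and 1638 in Cl10. The Cl10 libraries lay between the controls, and those of Cl1 were just below both. Of its exons, 16.3% are shared with an antisense RNA that is not among the genes counted in these data. Its log2 fold changes were -0.21 for Cl1 (standard error 0.119, adjusted p = 0.223 by edgeR's quasi-likelihood test) and -0.09 for Cl10 (standard error 0.101, adjusted p = 0.501 by the same test). The value depended on which control libraries were used. Without control replicate 1, it was -0.33 in Cl1 and -0.22 in Cl10, and without control replicate 2 it was 0.03 in Cl10. These fits took their spread from the clone libraries alone.

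BMP7 (ENSG00000101144; chromosome 20, 57168753 to 57266641, minus strand) encodes a ligand of the other large BMP branch, needed for the kidney and the eye. It had 4680 and 4798 normalized counts in the control, 7153 and 7198 in Cl1, and 4316 and 4153 in Cl10. Cl1 was above all other libraries, and Cl10 was below both controls by a smaller margin. BMP7 was higher in Cl1 by 0.60 on the log2 scale (standard error 0.11, adjusted p = 0.00185 by edgeR's quasi-likelihood test), whereas in Cl10 the value was -0.16 (standard error 0.0776, adjusted p = 0.143 by the same test). Without control replicate 1 the value in Cl10 was -0.18, and without control replicate 2 it was -0.15. These fits took their spread from the 2 Cl10 libraries alone and left out the difference between the controls.

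TGFBR2 (ENSG00000163513; chromosome 3, 30606601 to 30694142, plus strand) encodes the type II receptor, which binds TGF-beta first and activates the type I receptor. It had 3099 and 2785 normalized counts in the control, 3999 and 3811 in Cl1, and 7567 and 7823 in Cl10. The groups did not overlap and Cl10 was well above the rest. TGFBR2 was higher in Cl10 by 1.39 on the log2 scale (standard error 0.0895, adjusted p = 9.96e-05 by edgeR's quasi-likelihood test), and by the same test it was higher in Cl1 by 0.41 (standard error 0.111, adjusted p = 0.0172). The call in Cl1 needed both Cl1 libraries, as the value was 0.38 without Cl1 replicate 1 (adjusted p = 0.191) and 0.45 without Cl1 replicate 2 (adjusted p = 0.101).

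TGFBR1 (ENSG00000106799; chromosome 9, 99104038 to 99154192, plus strand) encodes the type I receptor for TGF-beta, the kinase that phosphorylates SMAD2 and SMAD3. It had 3714 and 3179 normalized counts in the control, 4521 and 4134 in Cl1, and 5144 and 5415 in Cl10. Both clones were above both controls, and Cl10 was above Cl1. TGFBR1 was higher in Cl10 by 0.62 on the log2 scale (standard error 0.0995, adjusted p = 0.00289 by edgeR's quasi-likelihood test). In Cl1 the value was 0.33 (standard error 0.118, adjusted p = 0.0582 by the same test). TGFBR1 passed in Cl1 at 0.34 with DESeq2 (adjusted p = 0.05 after rounding) and at 0.33 in 1 edgeR fit over the 6 libraries (adjusted p = 0.027). It also passed at 0.37 with the median of neighbours subtracted (adjusted p = 0.0391 by edgeR). Without control replicate 1 the value was 0.45, in a fit whose spread came from the Cl1 libraries alone.

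TGFBR3 (ENSG00000069702; chromosome 1, 91680343 to 91906335, minus strand) encodes betaglycan, a co-receptor without kinase activity that presents TGF-beta 2 and also binds inhibin. It had 1243 and 1051 normalized counts in the control, 973.3 and 1089 in Cl1, and 2086 and 2349 in Cl10. Cl10 was above all other libraries, while Cl1 and the control overlapped. TGFBR3 was higher in Cl10 by 0.95 on the log2 scale (standard error 0.112, adjusted p = 0.000801 by edgeR's quasi-likelihood test), and the value in Cl1 was -0.15 (standard error 0.127, adjusted p = 0.412 by the same test).

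**Figure D2:**
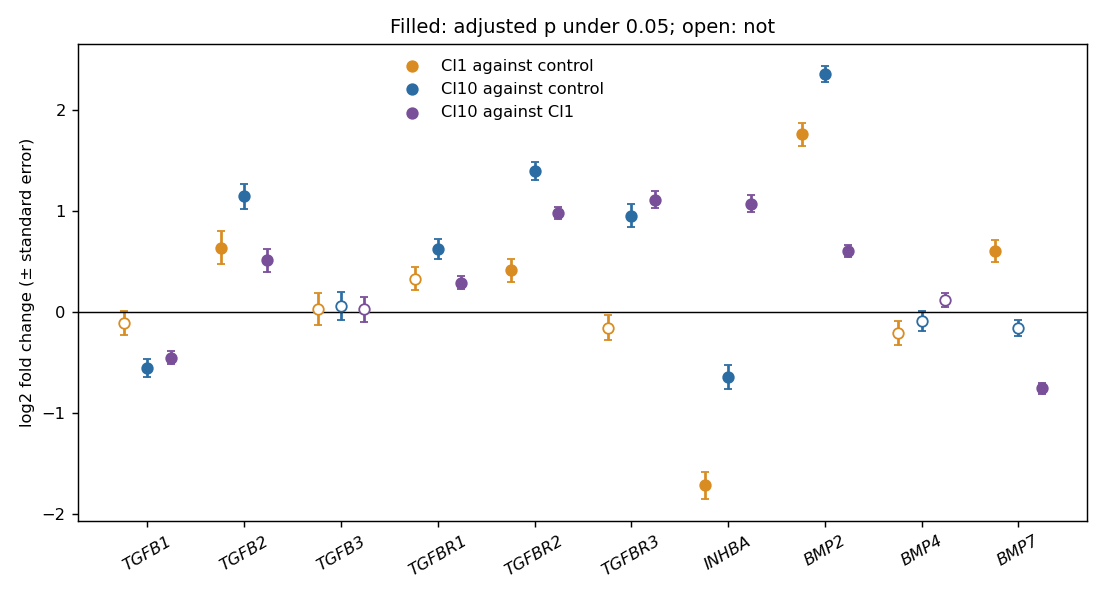
Log2 fold changes (vertical axis) with standard errors for the 10 genes (horizontal axis) in Cl1 against control, Cl10 against control and Cl10 against Cl1, filled where the adjusted p was under 0.05. BMP2 is highest at 1.76 and 2.36 against the control, and INHBA is lowest at -1.72 in Cl1.

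Promoters are shown for TGFB2, TGFBR2 and INHBA, since these passed in the same direction in both clones, as did BMP2, which is not shown, and for TGFB3 as the TGF-beta isoform that passed in neither. MAP kinases act on AP-1 and on related factors, and the promoters were therefore searched on both strands for the AP-1 site TGANTCA and for the core of the cAMP response element, TGACGT. Of 35116 promoters of this length in the RefSeq table (GRCh38.p14), 6.57% held the first and 7.1% the second, and the letters of these motifs do not contain each other. RefSeq promoters were found for 8 of the 10 genes, BMP2 and BMP7 having none here. The 250 bases before the start are printed 5′ to 3′ on the strand of the gene, with matches in capitals. Each window precedes 1 annotated transcript start, and those of TGFB3 and INHBA lie within the span that GENCODE gives for the gene.
TGFB2, chr1:218345086-218345335, plus strand: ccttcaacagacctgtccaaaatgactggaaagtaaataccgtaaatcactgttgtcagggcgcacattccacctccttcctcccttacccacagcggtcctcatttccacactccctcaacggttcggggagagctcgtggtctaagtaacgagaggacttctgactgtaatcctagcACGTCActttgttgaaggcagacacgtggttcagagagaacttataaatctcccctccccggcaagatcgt
TGFB3, chr14:75981996-75982245, minus strand: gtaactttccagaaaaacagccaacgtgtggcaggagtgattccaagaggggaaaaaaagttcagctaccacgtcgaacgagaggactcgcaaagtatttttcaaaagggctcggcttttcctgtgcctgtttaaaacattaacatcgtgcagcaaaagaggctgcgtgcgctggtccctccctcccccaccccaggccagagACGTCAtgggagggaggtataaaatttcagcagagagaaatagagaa
TGFBR2, chr3:30606351-30606600, plus strand: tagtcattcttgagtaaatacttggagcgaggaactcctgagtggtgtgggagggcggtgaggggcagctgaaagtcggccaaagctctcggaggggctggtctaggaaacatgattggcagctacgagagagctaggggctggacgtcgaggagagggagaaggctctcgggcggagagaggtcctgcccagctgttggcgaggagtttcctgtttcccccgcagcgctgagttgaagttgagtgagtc
INHBA, chr7:41703091-41703340, minus strand: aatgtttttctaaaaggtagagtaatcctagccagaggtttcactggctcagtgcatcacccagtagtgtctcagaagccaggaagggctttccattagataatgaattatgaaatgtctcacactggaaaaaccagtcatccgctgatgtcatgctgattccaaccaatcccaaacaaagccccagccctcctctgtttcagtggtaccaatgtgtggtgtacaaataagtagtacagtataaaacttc
The capitals in TGFB2 and TGFB3 are each 1 match to the core of the cAMP response element, on the strand opposite to the gene, that begins 71 and 47 bases before the start. TGFB2, which was higher in both clones, and TGFB3, which passed in neither, thus held the same match. The windows of TGFBR2 and INHBA held neither motif, nor did the other windows of TGFB3 and TGFBR2 or those of TGFB1, TGFBR1, TGFBR3 and BMP4.

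Levels of different genes were compared per kilobase of merged exons. In the control TGFB1 was highest with 2360 ± 183.8 normalized counts per kilobase (SD, n = 2), followed by BMP7 (873.6 ± 15.37) and BMP4 (575.1 ± 69.2). TGFBR1 (431.3) and TGFBR2 (429.4) overlapped in the control libraries, as did INHBA (226.2) and BMP2 (213.4), and below them came TGFBR3 (133.8), TGFB3 (56.2) and TGFB2 (30.4). TGFB1 remained the most abundant in Cl1 (2189 per kilobase) and Cl10 (1598 per kilobase). BMP2 had rank 7 of the 10 in the control and rank 3 in Cl1 (719.7 per kilobase) and in Cl10 (1089 per kilobase), where TGFBR2 (1123 per kilobase) was just above it. TGFB2 was the least abundant of the 10 in the control and Cl1 and exceeded TGFB3 in Cl10, with 66.8 against 58.3 per kilobase. In Cl1 it had 47.0 against 57.5 for TGFB3, and this order is uncertain. Part of the exons of TGFB2 (22.7%) is shared with TGFB2-OT1 on the same strand, and reads lost there would lower its level per kilobase. In Cl1 the libraries of TGFBR2 (570.1) and TGFBR1 (541.6) overlapped, and in Cl10 no neighbours in the order overlapped.

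**Figure D3:**
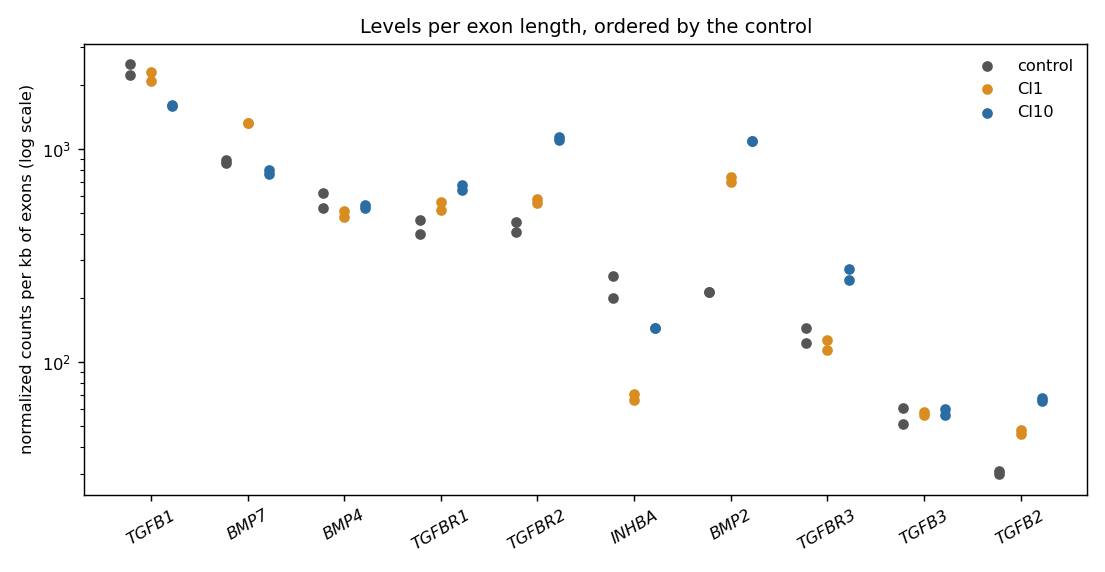
Normalized counts per kilobase of merged exons (vertical axis, log scale) of the 10 genes in each library, in the order of the control means. TGFB1 is highest in each group, at mean levels of 2360 in the control, 2189 in Cl1 and 1598 in Cl10.

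The clones were also compared with each other. In this comparison, which needs no control library, 6 of the 10 genes were higher and 2 were lower in Cl10 than in Cl1, where 49.0% of all 19818 tested genes passed, 24.9% as higher and 24.1% as lower. The receptors were all higher in Cl10, TGFBR3 by 1.11 on the log2 scale (standard error 0.0832, adjusted p = 4.68e-07 by edgeR's quasi-likelihood test), TGFBR2 by 0.98 (standard error 0.0591, adjusted p = 8.79e-08) and TGFBR1 by 0.29 (standard error 0.0634, adjusted p = 0.00223). With the median of the 50 nearest genes subtracted, TGFBR1 had a value of 0.11 and did not pass (adjusted p = 0.184). Of the ligands, INHBA was higher in Cl10 by 1.07 (adjusted p = 7.16e-07), BMP2 by 0.60 (adjusted p = 4.69e-06) and TGFB2 by 0.51 (adjusted p = 0.00315). BMP7 was lower in Cl10, with a log2 fold change of -0.76 (adjusted p = 5.1e-07), and so was TGFB1, with -0.45 (adjusted p = 7.02e-05). TGFB3 (0.02, adjusted p = 0.889) and BMP4 (0.12, adjusted p = 0.181) did not pass. Only TGFBR3 and INHBA had an absolute log2 fold change above 1 between the clones, where 10.8% of all genes passed with that limit, 4.47% as higher and 6.28% as lower. The libraries of the clones did not overlap for 9 of the 10 genes, against 74.8% of all tested genes.

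The other genes of the pathway were grouped by role into 8 lists of 109 genes in all, some genes being in more than 1 list. In Cl1, 23 of the 87 tested genes were higher and 14 were lower, and in Cl10, 29 of 85 were higher and 27 were lower. Their median log2 fold change was 0.11 in Cl1 and -0.0024 in Cl10. The counts and medians of each list stand beside the 25.1% and 42.5% of all genes that passed in Cl1 and Cl10, and beside a median of -0.01 over all genes in each. Fewer of these genes passed in Cl1 without Cl1 replicate 2, and in Cl10 without either Cl10 library. The share of all genes that passed is given for the main fits only. Counts of calls under an alternative, here and below, therefore do not show whether the lists or all genes moved.

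**Figure D4:**
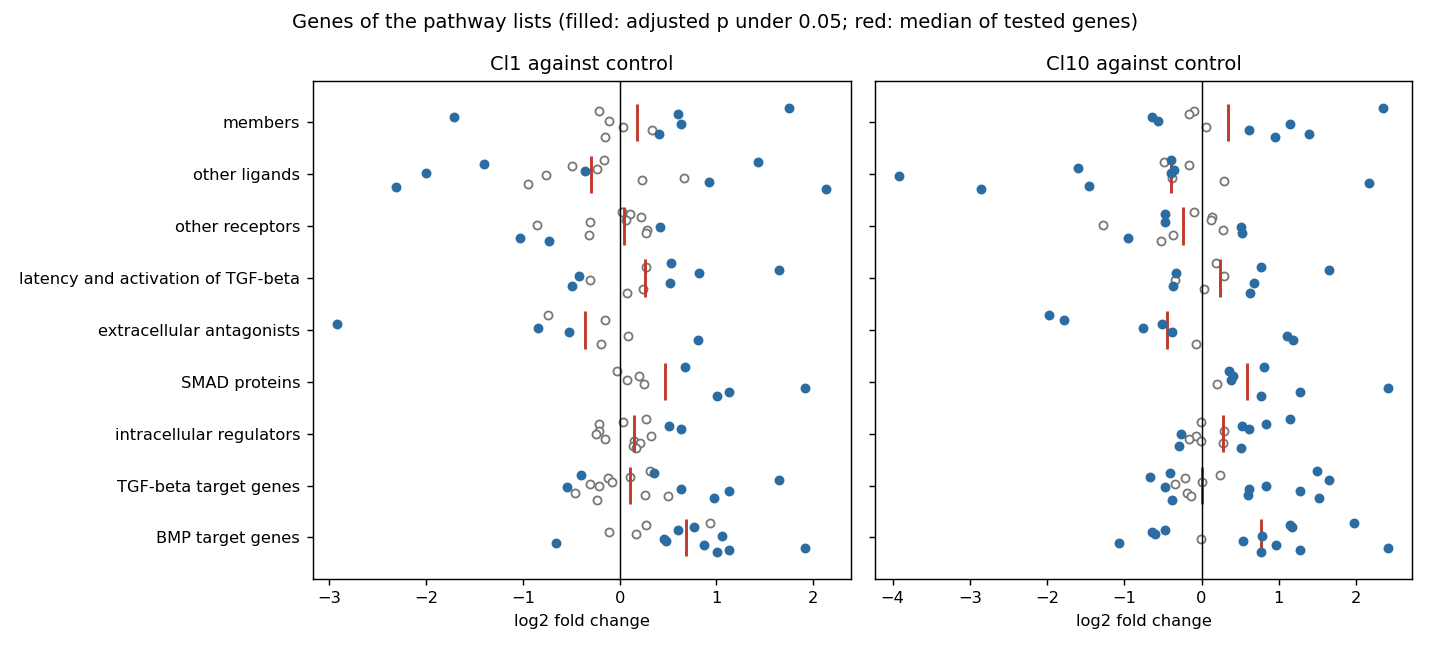
Log2 fold changes (horizontal axes) of the tested genes of each list in Cl1 and in Cl10 against the control, filled where the adjusted p was under 0.05, with a red line at the list median. The SMAD and BMP target lists have the highest medians, 0.46 and 0.69 in Cl1 and 0.59 and 0.78 in Cl10.

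Of the other ligands, 3 of 14 were higher and 4 lower in Cl1, and 1 of 12 was higher and 7 lower in Cl10, with medians of -0.30 and -0.40. INHBB, the beta B chain of activin, had 154.0 and 127.9 normalized counts in the control, 263.8 and 270.6 in Cl1 and 636.6 and 631.7 in Cl10. It was higher in Cl1 by 0.92 on the log2 scale (adjusted p = 0.0026 by edgeR's quasi-likelihood test), and by the same test it was higher in Cl10 by 2.17 (adjusted p = 8.84e-05), thus opposite in direction to INHBA. GDF15, a stress-induced hormone that signals through a receptor outside this family, had 413.7 and 360.2 normalized counts in the control, 81.97 and 112.4 in Cl1 and 23.58 and 27.52 in Cl10. It fell by 2.01 in Cl1 (adjusted p = 1.8e-05) and fell by 3.92 in Cl10 (adjusted p = 4.62e-05). INHBE, the beta E chain, fell by 2.31 in Cl1 (adjusted p = 5.17e-05) and fell by 2.86 in Cl10 (adjusted p = 0.000243). Of the 3 most abundant, GDF11 fell by 0.36 in Cl1 (adjusted p = 0.0261) and fell by 0.40 in Cl10 (adjusted p = 0.00711), AMH fell by 0.40 in Cl10 (adjusted p = 0.0365) and BMP8B fell by 0.36 in Cl10 (adjusted p = 0.0242). These calls on GDF11, AMH and BMP8B did not pass with 1 library of the clone left out, whichever it was, for example -0.36 for GDF11 in Cl1 without Cl1 replicate 1 (adjusted p = 0.209) and -0.34 for AMH in Cl10 without Cl10 replicate 1 (adjusted p = 0.203), and the number of lower ligands in Cl10 was 2 without Cl10 replicate 1 or 2. With the median of its neighbours subtracted, GDF11 in Cl10 had a value of 0.09. The other calls, named after their values were seen, were LEFTY1 (2.14) and BMP5 (1.43), higher in Cl1, BMP6 (-1.40), lower in Cl1, and BMP8A (-1.60) and INHBC (-1.46), lower in Cl10. LEFTY1, with 6 and 2 raw counts in the control and 18 and 16 in Cl1, did not pass with DESeq2 (2.22), with the median of neighbours subtracted (1.73), without control replicate 2 (1.72) or without Cl1 replicate 1 (2.29) or 2 (2.01). In Cl10, BMP8A and INHBC did not pass with DESeq2 (-1.63 and -1.46) or without Cl10 replicate 1 (-1.92 and -1.70) or 2 (-1.37 and -1.27). Nor did BMP8A pass without control replicate 2 (-1.23), or INHBC without control replicate 1 (-1.16) or with the median of neighbours subtracted (-0.66).

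Of the other receptors, 1 of 12 was higher and 2 lower in Cl1, and 2 of 12 were higher and 3 lower in Cl10, with medians of 0.05 and -0.24. BMPR1A, a type I receptor for BMP2 and BMP4, had 1876 and 1851 normalized counts in the control, 2374 and 2599 in Cl1 and 2593 and 2714 in Cl10, and was higher by 0.42 in Cl1 (adjusted p = 0.0139 by edgeR's quasi-likelihood test) and by 0.51 in Cl10 (adjusted p = 0.00226). BMPR2, the type II receptor for BMPs, was higher in Cl10 by 0.53 (adjusted p = 0.0127). RGMA, a membrane-anchored BMP co-receptor, had 451.7 and 481.7 normalized counts in the control, 248.5 and 205.0 in Cl1 and 255.4 and 222.5 in Cl10, and fell by 1.03 in Cl1 (adjusted p = 0.000567) and fell by 0.96 in Cl10 (adjusted p = 0.00136). ACVR1B, the type I receptor for activin, fell by 0.48 in Cl10 (adjusted p = 0.01). Without Cl1 replicate 1 or 2 the value of BMPR1A in Cl1 was 0.48 or 0.36 and did not pass (adjusted p = 0.0657 and 0.196). Likewise BMPR2 did not pass without Cl10 replicate 2 (0.49, adjusted p = 0.0674), nor did ACVR1B without Cl10 replicate 1 (-0.46, adjusted p = 0.0666) or with the median of its neighbours subtracted (-0.08, adjusted p = 0.569). The other calls, again named after their values were seen, were RGMB (-0.73, or -0.46 without control replicate 1), lower in Cl1, and ACVR2B (-0.47), lower in Cl10. ACVR2B had -0.30 without control replicate 1, and it did not pass without Cl10 replicate 1 (-0.43) or 2 (-0.50).

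TGF-beta is secreted in a latent form, bound to LTBP proteins, and integrins such as alphaV beta6 release it. Of the 10 tested genes of latency and activation, 4 were higher and 2 lower in Cl1, with the same numbers in Cl10 and medians of 0.26 and 0.24. ITGB6, the beta6 chain, had 527.0 and 553.7 normalized counts in the control, 1530 and 1862 in Cl1 and 1677 and 1693 in Cl10, and was higher by 1.65 in both Cl1 (adjusted p = 3.52e-06 by edgeR's quasi-likelihood test) and Cl10 (adjusted p = 5.8e-05). LTBP3 was higher by 0.52 in Cl1 (adjusted p = 0.00435) and by 0.68 in Cl10 (adjusted p = 0.000798), whereas LTBP4 fell by 0.49 in Cl1 (adjusted p = 0.00787) and fell by 0.37 in Cl10 (adjusted p = 0.0085). LTBP2 had values of -0.30 in Cl1 and -0.35 in Cl10 that did not pass (adjusted p = 0.156 and 0.101), its control libraries having 10740 and 7726 normalized counts. With the median of neighbours subtracted, LTBP3 had values of 0.34 in Cl1 (adjusted p = 0.043) and 0.28 in Cl10 (adjusted p = 0.0291). LTBP4 did not pass with 1 clone library left out, with a value of -0.44 without Cl1 replicate 1 (adjusted p = 0.163), -0.53 without Cl1 replicate 2 (adjusted p = 0.0812), -0.37 without Cl10 replicate 1 (adjusted p = 0.199) and -0.37 without Cl10 replicate 2 (adjusted p = 0.191). LTBP3 in Cl1 had a value of 0.50 without Cl1 replicate 1 (adjusted p = 0.0814), and 2 genes of the list were then higher. Named after their values were seen, ITGB8 was higher in Cl1 (0.82) and lower in Cl10 (-0.33), FURIN was higher (0.54) and LTBP1 lower (-0.42) in Cl1, and ITGAV (0.77) and THBS1 (0.62) were higher in Cl10. With the median of its neighbours subtracted, ITGB8 in Cl10 turned to a higher value of 0.67 (adjusted p = 0.00152), and it did not pass without Cl10 replicate 1 (-0.34) or 2 (-0.32). LTBP1 did not pass without Cl1 replicate 1 (-0.41) or 2 (-0.42) or without control replicate 1 (-0.24), and FURIN did not pass without Cl1 replicate 1 (0.50), so that no gene of the list was lower in Cl1 without a Cl1 library.

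Many of the genes listed as extracellular antagonists encode proteins that bind the ligands and keep them from their receptors. Of the 8 tested, 1 was higher and 3 lower in Cl1, and 2 were higher and 5 lower in Cl10, with medians of -0.36 and -0.45. FST (follistatin), which neutralizes activin, had 1033 and 1042 normalized counts in the control, 132.3 and 141.7 in Cl1 and 652.3 and 793.2 in Cl10. It fell by 2.92 in Cl1 (adjusted p = 1.12e-07 by edgeR's quasi-likelihood test) and fell by 0.52 in Cl10 (adjusted p = 0.0115), and without Cl10 replicate 1 the value in Cl10 was -0.38 and did not pass (adjusted p = 0.147). FST and INHBA, the antagonist and its ligand, thus both had their lowest counts in Cl1. FSTL3, a relative of follistatin, had 3779 and 3923 normalized counts in the control, 2149 and 2145 in Cl1 and 2429 and 2121 in Cl10, and fell by 0.84 in Cl1 (adjusted p = 0.000143) and fell by 0.75 in Cl10 (adjusted p = 0.000933). CHRD (chordin), which binds BMPs, had 158.2 and 172.0 normalized counts in the control, 125.5 and 173.3 in Cl1 and 53.05 and 41.88 in Cl10, and fell by 1.78 in Cl10 (adjusted p = 0.000798). BMPER fell by 1.97 in Cl10 (adjusted p = 0.00277), with a value of -1.23 once the median of its neighbours was subtracted (adjusted p = 0.0209). NBL1 fell by 0.52 in Cl1 (adjusted p = 0.0114) and fell by 0.39 in Cl10 (adjusted p = 0.0362), but had -0.43 without Cl1 replicate 2 (adjusted p = 0.143), -0.42 without Cl10 replicate 1 (adjusted p = 0.117) and -0.35 without Cl10 replicate 2 (adjusted p = 0.195). Without control replicate 2 its values were smaller, -0.34 in Cl1 and -0.21 in Cl10. The values of TWSG1, the most abundant of the list, were -0.19 in Cl1 and -0.07 in Cl10 and did not pass (adjusted p = 0.223 and 0.526). FST and FSTL3 are antagonists of activin, and CHRD, BMPER and NBL1 act on BMPs, as does NOG (noggin), named after its values were seen, which was higher in Cl10 by 1.10 (adjusted p = 0.0139), or by 0.73 without control replicate 1. SOST, named in the same way, was higher in Cl1 (0.81) and in Cl10 (1.19), but in Cl1 it did not pass with DESeq2 (0.83), without control replicate 2 (0.74) or without Cl1 replicate 1 (0.86) or 2 (0.77).

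All 8 SMAD genes were tested, of which 4 were higher in Cl1 and 7 in Cl10, with none lower. The list median was 0.46 in Cl1 and 0.59 in Cl10. SMAD6, the inhibitor that acts mainly on BMP receptors, had 748.6 and 767.7 normalized counts in the control, 2765 and 2943 in Cl1 and 4060 and 4001 in Cl10. It was higher by 1.92 in Cl1 (adjusted p = 2.48e-07 by edgeR's quasi-likelihood test) and by 2.42 in Cl10 (adjusted p = 1.45e-05). SMAD7, the inhibitor of both branches, had 416.2 and 386.0 normalized counts in the control, 847.0 and 910.1 in Cl1 and 981.5 and 952.4 in Cl10, and was higher by 1.13 in Cl1 (adjusted p = 8.19e-05) and by 1.27 in Cl10 (adjusted p = 0.000191). SMAD9, which carries BMP signals, was higher by 1.01 in Cl1 (adjusted p = 0.000813) and by 0.77 in Cl10 (adjusted p = 0.00633). SMAD3, the most abundant, was higher in Cl10 by 0.41 (adjusted p = 0.012), and SMAD5 had values of 0.26 in Cl1 and 0.20 in Cl10 that did not pass (adjusted p = 0.113 and 0.105). The remaining call in Cl1 was SMAD1, another carrier of BMP signals, named after its values were seen, at 0.67 (adjusted p = 0.00181). SMAD1 was also higher in Cl10, by 0.81 (adjusted p = 0.00123 by the same test). Without Cl10 replicate 1 or 2 the number of higher SMAD genes in Cl10 was 4, and SMAD3 had 0.41 or 0.42 (adjusted p = 0.141 and 0.139).

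Of the 13 intracellular regulators, 2 were higher and none lower in Cl1, and 5 were higher and 2 lower in Cl10, with medians of 0.15 and 0.28. BAMBI, a pseudoreceptor without kinase activity, had 1442 and 1603 normalized counts in the control, 1948 and 1712 in Cl1 and 3407 and 3289 in Cl10. It was higher by 1.14 in Cl10 (adjusted p = 0.000168 by edgeR's quasi-likelihood test). The value in Cl1 was 0.27 (adjusted p = 0.112 by the same test), or 0.35 without control replicate 2. The 2 higher genes in Cl1 were SKI and SKIL, repressors of SMAD-driven transcription, named after their values were seen, at 0.51 (adjusted p = 0.00651) and 0.64 (adjusted p = 0.00182), and SKI did not pass without Cl1 replicate 1 (0.44). Both were also higher in Cl10, SKI by 0.52 (adjusted p = 0.00441 by the same test) and SKIL by 0.61 (adjusted p = 0.00293). The number of lower regulators in Cl10 was 0 with DESeq2, with the median of neighbours subtracted, and without Cl10 replicate 1 or 2. The 3 most abundant, FKBP1A, STRAP and SMURF1, passed in neither clone. Their values in Cl10 were -0.0014 (adjusted p = 0.992), -0.07 (adjusted p = 0.578) and 0.30 (adjusted p = 0.0507). FKBP1A changed sign with the scaling in both clones. SMURF1 passed in Cl10 with DESeq2 (0.30, adjusted p = 0.0373), at 0.41 without control replicate 1 and at 0.17 without control replicate 2.

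Of the 17 genes listed as targets of TGF-beta, 5 were higher and 2 lower in Cl1, and 7 were higher and 4 lower in Cl10. TGFBI, a matrix protein, had 23820 and 24160 normalized counts in the control, 49700 and 44350 in Cl1 and 68380 and 68810 in Cl10, and was higher by 0.97 in Cl1 (adjusted p = 0.000243 by edgeR's quasi-likelihood test) and by 1.52 in Cl10 (adjusted p = 6.61e-05). In Cl1 its value was 0.61 once the median of its neighbours was subtracted (adjusted p = 0.00574). CCN2, a matricellular protein, had 63.44 and 50.53 normalized counts in the control, 65.74 and 77.30 in Cl1 and 174.9 and 146.0 in Cl10, and was higher in Cl10 by 1.49 (adjusted p = 0.00179). CDKN1A, an inhibitor of the cell cycle, was higher by 0.35 in Cl1 (adjusted p = 0.0478) and fell by 0.41 in Cl10 (adjusted p = 0.00661). Its value in Cl1 did not pass with library totals as the only scaling (0.29, adjusted p = 0.0999) or with 1 Cl1 library left out (0.45 without Cl1 replicate 1 and 0.26 without Cl1 replicate 2). That in Cl10 did not pass with 1 Cl10 library left out (-0.46 without Cl10 replicate 1 and -0.36 without Cl10 replicate 2). Without Cl1 replicate 2 the number of lower genes in Cl1 was 0 and without control replicate 2 it was 4, and without Cl10 replicate 1 or 2 that in Cl10 was 1 or 2. JUNB had values of -0.08 and 0.0001 (adjusted p = 0.654 and 0.999). The list median was 0.11 in Cl1 and 0.0001 in Cl10, and the list shares ITGB6, LTBP2, SMAD7, SKIL and PMEPA1 with the lists above.

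Of the 14 genes listed as targets of BMP, 9 were higher and 1 lower in Cl1, and 9 were higher and 4 lower in Cl10. The list median was 0.69 in Cl1 and 0.78 in Cl10, and over all alternatives it was between 0.61 and 0.77 in Cl1 and between 0.70 and 0.82 in Cl10. SMAD6, SMAD7, SMAD9 and BAMBI are among the 14 and were given above. MSX2, a homeobox gene, had 1525 and 1806 normalized counts in the control, 3004 and 3091 in Cl1 and 3284 and 3197 in Cl10, and was higher by 0.87 in Cl1 (adjusted p = 0.000205 by edgeR's quasi-likelihood test) and by 0.97 in Cl10 (adjusted p = 0.000479). ATOH8 had 18.61 and 16.13 normalized counts in the control, 34.15 and 32.79 in Cl1 and 63.86 and 74.18 in Cl10, and was higher in Cl10 by 1.98 (adjusted p = 0.00179), with a value of 0.94 in Cl1 that did not pass (adjusted p = 0.0856). ID1 and ID3, abundant inhibitors of differentiation, did not follow the list median. ID1 had 30600 and 36250 normalized counts in the control, 36140 and 39040 in Cl1 and 22590 and 21270 in Cl10, and fell by 0.60 in Cl10 (adjusted p = 0.00422). Without Cl10 replicate 2 its value was -0.56 and did not pass (adjusted p = 0.074). ID3 was higher in Cl1 by 0.46 (adjusted p = 0.0276), but not without Cl1 replicate 1 (0.46, adjusted p = 0.168) or 2 (0.45, adjusted p = 0.172), and its value in Cl10 was -0.01 (adjusted p = 0.947). Without Cl1 replicate 2 the number of higher genes in Cl1 was 6, and without Cl10 replicate 1 or 2 the number of lower genes in Cl10 was 2 or 1. Named after their values were seen, ID2 (1.06 in Cl1 and 0.78 in Cl10), ID4 (0.48 and 0.54) and GATA2 (0.77 and 1.17) were higher in each clone, MSX1 was lower in each (-0.66 and -1.07), HEY1 was lower in Cl10 (-0.64), and GATA3 was higher in Cl1 (0.61) and lower in Cl10 (-0.48). MSX1 in Cl10 had -0.22 and did not pass with the median of its neighbours subtracted (adjusted p = 0.342), and in Cl1 it had -0.39 without control replicate 2. ID4 had 0.31 in Cl10 with that median subtracted, and in Cl1 ID4 and GATA3 did not pass without Cl1 replicate 2 (0.45 and 0.47). In Cl10, HEY1 and GATA3 did not pass without Cl10 replicate 1 (-0.64 and -0.50) or 2 (-0.64 and -0.45).

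**Figure D5:**
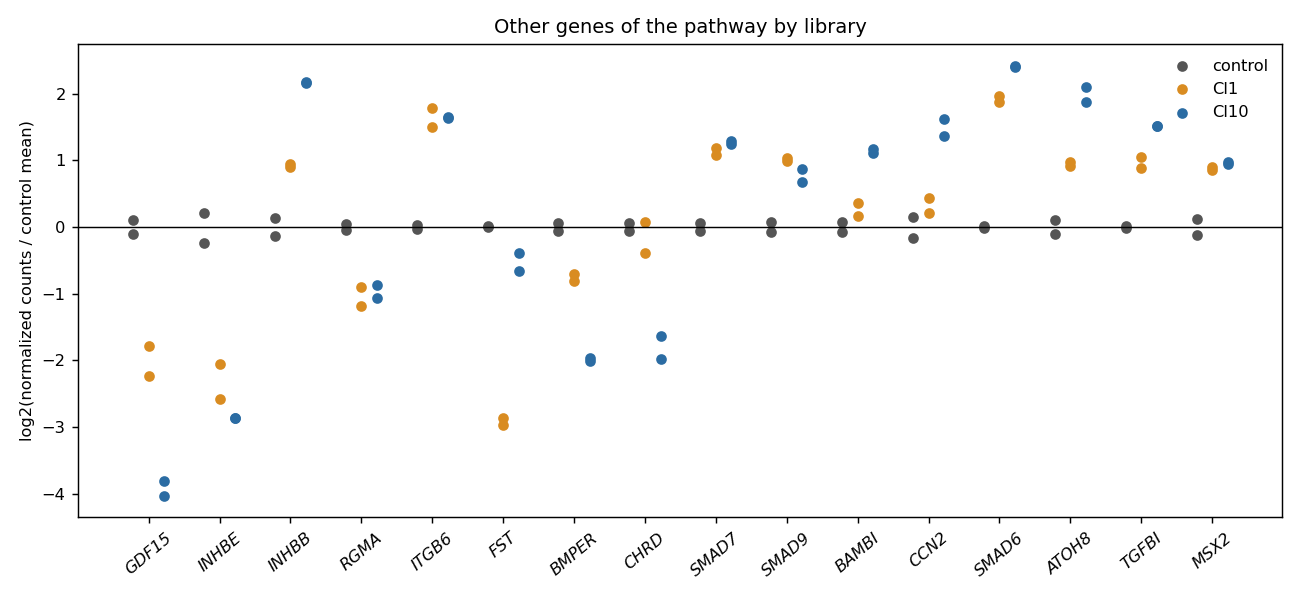
Normalized counts of other pathway genes in each library, as log2 of the ratio to the control mean (vertical axis). Plotted are the genes named by rule for the largest log2 fold changes, with TGFBI and MSX2 added, which were named for their high mean CPM. Genes named after their values were seen are not plotted. SMAD6 and TGFBI lie above the controls in all 4 clone libraries, GDF15 and INHBE lie below them, and FST is lowest in Cl1.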

How the data were processed

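Messenger RNA of A253 cells was measured in 6 libraries, 2 for each of 3 groups. The deposited values are raw counts per gene, which the authors made by aligning poly(A)-selected, paired-end reads to hg38 with HISAT2 and counting them with HTSeq per the paper, while the submitters' processing notes name HISAT2, StringTie and DESeq. The labels name a stranded mRNA kit and the paper another kit. The gene annotation and the strand setting are not given in the sources used here. Samples of the SOX2 experiment are not analysed here. No column of the table was left unused. Genes were placed and measured for exon length with GENCODE v44, in which 58207 of the 58735 gene IDs were found, with 99.9% of the counts.

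Each pair of groups was fitted with its own 4 libraries in edgeR 4.0.16 (R 4.3.3), with filterByExpr, TMM, estimateDisp, glmQLFit and glmQLFTest, and p-values were adjusted by Benjamini-Hochberg over all genes tested. A standard error was obtained as the size of the unshrunk log2 fold change over the square root of the F statistic. The script was tested on simulated data. Libraries of a group differed by more than counting noise, most often in the control. Among genes with at least 100 counts in a group, 58.5% in the control, 47.4% in Cl1 and 23.6% in Cl10 had p under 0.05 (chi-square test). A fit without 1 library takes its spread from the other group alone. Its adjusted p is therefore not comparable with that of the main fit. The 10 genes, the pathway lists and the marker lists were chosen with earlier results of these data known. Besides the 10 genes and DUSP1, the text names of each list the 3 genes with the highest mean CPM and up to 3 more with the largest absolute log2 fold change among genes past the threshold whose log2 fold change exceeded 1 in size, and says where another gene was chosen after its values were seen. Alternatives were other scalings, filters, tests, designs and thresholds, subtraction of the median log2 fold change of the 50 nearest tested genes, and leaving out each library, where the lone library of a group is assumed to vary like the other group (DESeq2 1.42.0 for its size factors and test).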

Additional observations from a re-analysis of the deposited data

Results flagged for a closer look

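The clones differed from each other in the direct test of Cl10 against Cl1 (edgeR's quasi-likelihood test, adjusted p under 0.05) for 8 of the 10 ligand and receptor genes, where 49.0% of all tested genes did. Higher in Cl10 were TGFBR3 (log2 fold change 1.11), INHBA (1.07), TGFBR2 (0.98), BMP2 (0.60), TGFB2 (0.51) and TGFBR1 (0.29), and lower in Cl10 were BMP7 (-0.76) and TGFB1 (-0.45).

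Among the other named ligands and receptors, INHBB (1.25) and BMPR2 (0.26) were higher in Cl10 than in Cl1, and GDF15 (-1.91), ACVR1B (-0.58) and AMH (-0.24) were lower. Of the genes of latency and of the antagonists, FST (2.40) and LTBP3 (0.16) were higher, and CHRD (-1.63) and BMPER (-1.22) were lower. SMAD6 (0.50), SMAD3 (0.22), BAMBI (0.87) and SMURF1 (0.51) were higher, and STRAP (-0.40) was lower. Of the listed targets, CCN2 (1.18), ATOH8 (1.04) and TGFBI (0.55) were higher in Cl10, and ID1 (-0.77), CDKN1A (-0.76) and ID3 (-0.47) were lower. AMH, LTBP3, BMPER and SMAD3 did not pass without Cl10 replicate 1 (-0.17, 0.18, -1.20 and 0.21) or without Cl10 replicate 2 (-0.30, 0.14, -1.24 and 0.23), BMPER did not pass without Cl1 replicate 1 (-1.17), and BMPR2 did not pass without Cl10 replicate 2 (0.22). With the median of the 50 nearest genes subtracted, ACVR1B (0.004), STRAP (0.05) and LTBP3 (-0.07) changed sign and did not pass.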

How the results depend on the processing

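With 2 libraries per group, a call rests on few libraries, and 1 library left out leaves a group with 1. Of the 360 alternative values of the 10 genes, 335 kept their direction and their side of the threshold. With the absolute log2 fold change above 1 as a further limit, the number of the 10 genes that passed was 2 in Cl1, 3 in Cl10 and 2 in Cl10 against Cl1, and that of other pathway genes was 12, 18 and 13 (37, 56 and 42 without the limit). With 1 library left out, the 10 genes gave 3 to 7 calls in Cl1, 7 to 9 in Cl10 and 8 to 9 between the clones, and the other pathway genes gave 24 to 45, 34 to 69 and 36 to 48. The sign changed for TGFB1 in Cl1 with the median of neighbours subtracted (0.0345). It changed for TGFB3 in Cl1 with library totals as the scaling (-0.0386), with the median of neighbours subtracted (-0.1096) and without control replicate 2 (-0.0787, against 0.1596 without control replicate 1), in Cl10 without control replicate 2 (-0.0633, against 0.1774 without control replicate 1), and between the clones without Cl1 replicate 2 (-0.0025) or Cl10 replicate 1 (-0.0215, against 0.0736 without Cl10 replicate 2). It changed for BMP4 in Cl10 without control replicate 2 (0.03, against -0.2179 without control replicate 1). BMP4 passed between the clones with library totals as the scaling (0.19, adjusted p = 0.0401 by edgeR), and its value was 0.17 without Cl1 replicate 1. BMP7 passed in Cl10 with the median of neighbours subtracted (-0.33, adjusted p = 0.0148 by edgeR). The cause was not tested. Deviations from the group means were compared over 20582 genes between libraries with the same replicate number. Their correlations were -0.0682, -0.0181 and 0.0101 for the 3 comparisons. Such libraries thus showed no strong common deviation over the genes as a whole, but these correlations cannot exclude an effect shared by some genes. With the replicate number as a block, 5, 7 and 8 of the 10 genes and 35, 58 and 43 of the other pathway genes passed. The share of all genes that passed is not given for this design.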
